A study of Mus musculus with 20 samples.

Results

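The heme synthesis enzymes examined here were Alas1, Alad, Uros, Urod, Cpox, Ppox and Fech, 7 of the 12986 genes with a measurable probe in the liver of male Muta™Mouse exposed to benzo(a)pyrene (BaP). They were chosen by name, as every probe whose transcript accession belongs to 1 of these symbols, which gave 9 probes because Alas1 and Fech have 2 each. Muta™Mouse (transgenic strain 40.6) carries a bacterial lacZ gene in every cell for counting mutations. The mice were 25 weeks old and received olive oil by gavage daily for 28 days, alone (control) or with BaP at 25, 50 or 75 mg/kg/day, with 5 mice in each of the 4 groups. These are called the low, middle and high dose. Livers were taken 3 days after the last dose, so that each value describes a liver after dosing had ended. Whole-liver RNA, labelled with Cy5, was hybridised to an Agilent 2-colour array beside a Cy3-labelled universal mouse reference RNA made from cell lines. The measure is the log2 ratio of liver over reference at a probe, on which 1 unit is a doubling, and a value is read against the same probe only.

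Heme, the iron porphyrin of hemoglobin, cytochromes and catalase, is built in a path that starts and ends in the mitochondrion. Alas1 makes 5-aminolevulinic acid and is the rate-limiting step in liver, where heme itself holds Alas1 down. Alad, Uros and Urod work on intermediates in the cytosol, and Cpox, Ppox and Fech finish the ring and insert iron in the mitochondrion. The liver spends much of its heme on cytochrome P450 enzymes, among them the Cyp1 family that BaP induces through the aryl hydrocarbon receptor (AhR). Inherited loss of an enzyme after Alas1 in the path can cause a porphyria.

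No heme synthesis enzyme differed from control at any dose by the rule used for a call, an adjusted p under 0.05 with a fold change over 1.5 in limma's moderated test of all 20 arrays. The 7 genes gave 0 calls at the 3 doses, and 0, 0 and 1 of them had an unadjusted p under 0.05. The share of all 27346 probes called was 0% at the low dose, 0% at the middle dose and 0.135% at the high dose, so that few probes of any kind passed. The median log2 fold change of the 7 genes was 0.07, -0.07 and 0.01 at the rising doses, against 0.0009, -0.0032 and 0.0025 over all probes. A call that is missed does not show that a transcript stayed level. The 95% confidence interval of the difference lay within 1.5-fold in both directions for 4, 4 and 2 of the 7 genes at the 3 doses, and for the other genes it reached beyond.

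Promoters are shown for the 3 enzymes the results return to: Alas1, which varied most between animals, and Uros and Cpox, which had the most negative differences from control at the high dose and moved alike from array to array. The windows are RefSeq's (GRCm38.p6), from 250 bases before to 50 bases after an annotated start. Windows were taken for 6 of the 7 enzymes. Fech was left out, so neither motif was searched in it. Alas1 lies at chr9:106247905-106248204 on the minus strand, Uros at chr7:133709246-133709545 on the minus strand and Cpox at chr16:58669958-58670257 on the plus strand. Alas1 and Uros each have a second annotated start, which is not shown. Capitals mark 2 motifs, searched on both strands. The first is GCGTG, the core of the element that AhR binds, which reads CACGC on the opposite strand. The second is CGCANGCG (CGCNTGCG on the other strand), the paired half-sites of nuclear respiratory factor 1, a regulator known to act on Alas1.
Alas1: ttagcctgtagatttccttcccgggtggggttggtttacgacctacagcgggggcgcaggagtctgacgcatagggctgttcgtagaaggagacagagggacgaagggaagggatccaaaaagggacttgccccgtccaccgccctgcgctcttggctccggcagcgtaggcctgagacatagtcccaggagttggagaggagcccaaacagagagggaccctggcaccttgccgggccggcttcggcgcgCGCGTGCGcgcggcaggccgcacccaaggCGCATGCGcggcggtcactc
Uros: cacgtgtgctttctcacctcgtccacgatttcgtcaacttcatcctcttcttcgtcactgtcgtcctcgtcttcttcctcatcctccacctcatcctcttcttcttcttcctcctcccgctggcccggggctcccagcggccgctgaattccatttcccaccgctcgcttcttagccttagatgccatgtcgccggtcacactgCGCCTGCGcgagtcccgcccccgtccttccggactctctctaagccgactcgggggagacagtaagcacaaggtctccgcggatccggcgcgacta
Cpox: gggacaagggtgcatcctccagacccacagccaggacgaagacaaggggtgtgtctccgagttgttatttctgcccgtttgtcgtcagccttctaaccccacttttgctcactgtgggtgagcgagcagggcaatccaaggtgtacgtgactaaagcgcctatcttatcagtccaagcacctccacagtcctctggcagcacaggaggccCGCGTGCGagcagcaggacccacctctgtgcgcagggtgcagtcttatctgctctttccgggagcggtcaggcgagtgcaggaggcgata
The 6 enzymes had 9 windows, 2 each for Alas1, Alad and Uros, and an enzyme was counted when any of its windows matched. The shares of all windows are per single window. GCGTG was found in 4 of the 6 enzymes, Alas1, Alad, Cpox and Ppox, and in 32.4% of the 32817 mouse windows of the same length. CGCANGCG was found in 3 enzymes, Alas1, Uros and Cpox, and in 8.19% of all windows. The Alas1 window held 2 copies, at positions 2 and 31 from its start, and 1.65% of all windows held 2 or more. In Alas1 and in Cpox the GCGTG letters lay inside a CGCANGCG match, so the same bases were counted for both motifs. A match of letters is a description of the window and shows no binding.

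The paper left 1 sample, which it does not name, out of its mRNA analysis after clustering, whereas all 20 arrays were kept here. The share of probes well above background in the liver channel ran from 51.9% to 67.5%. The highest share belonged to control replicate 4, while the other controls lay between 51.9% and 54.3%. Without that array 0 enzymes were called, and the differences at the high dose were -0.38 for Uros (limma adjusted p = 0.45), 0.42 for Alas1, -0.21 for Cpox and -0.15 for Fech, against -0.38, 0.61, -0.32 and -0.26 with it. The 20 arrays lay on 6 slides of up to 4 arrays each. With the exception of 1 control array and 1 array of the middle-dose group, each group occupied its own position on the slide, so dose and position cannot be told apart. The labels give the source as both lungs and liver. All 8 hepatocyte markers tested, albumin among them, were well above background on all 20 arrays. Of the 4 lung epithelial markers tested, Sftpd was well above background on 19 arrays, Sftpa1 on 16, Scgb1a1 on 5 and Ager on 1, and Sftpb and Sftpc did not pass the presence filter. Sftpd had a log2 fold change of 1.19 at the high dose (limma adjusted p = 0.0688), with 5 of 5 mice above all controls, and Sftpa1 had 0.05. Their part in the values of the enzymes was not tested. In bulk tissue a smaller number of cells of one type and less RNA per cell cannot be told apart.

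**Figure D1:**
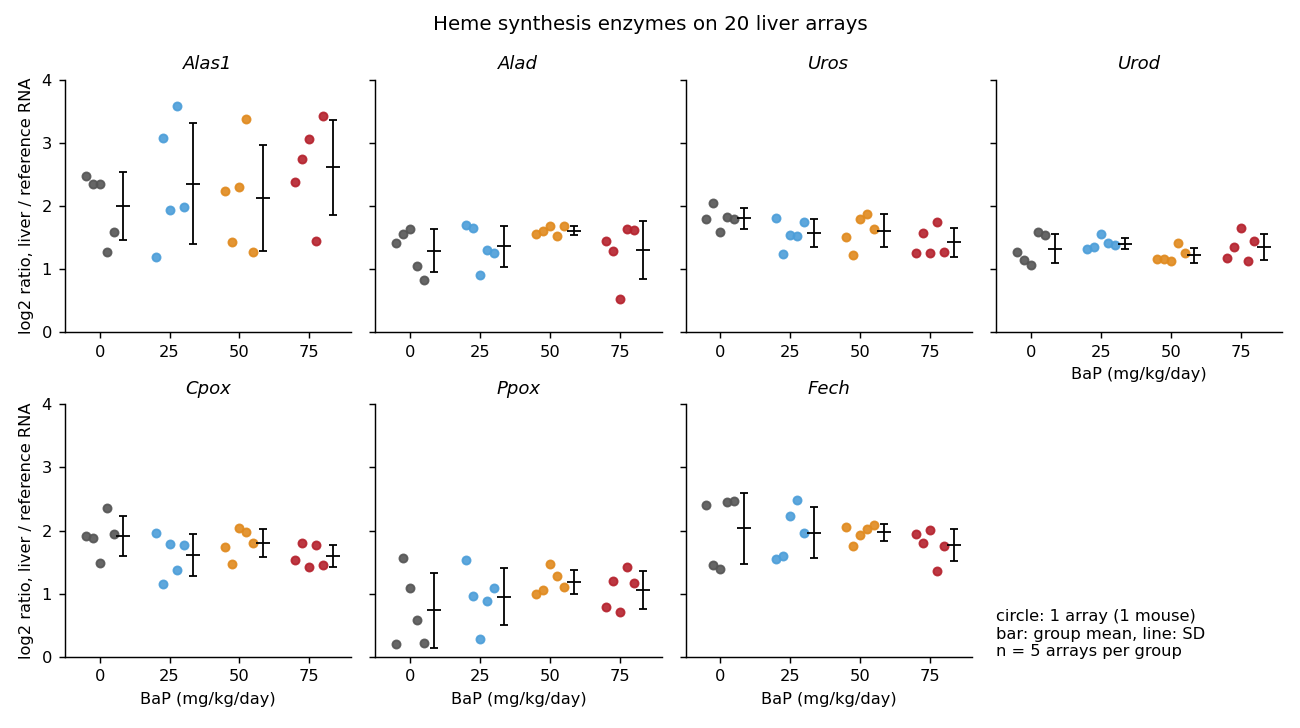
Log2 ratio of liver over reference RNA (y axis) for the 7 heme synthesis enzymes, brighter probe, by BaP dose in mg/kg/day (x axis), with 1 circle per array, a bar for the group mean and a line for the SD (n = 5). The Alas1 circles range from 1.19 to 3.59 and overlap between all 4 groups, while the Urod circles stay between 1.07 and 1.65.

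Alas1, which sets the rate of the path in hepatocytes, differed more between animals than between doses. Its brighter probe read 2.47, 2.35, 2.34, 1.28 and 1.58 in the 5 control mice. At the low dose it read 1.19, 3.07, 1.94, 3.59 and 1.98, and at the middle dose 2.24, 1.43, 2.31, 3.38 and 1.28. At the high dose it read 2.38, 2.74, 3.06, 1.44 and 3.43. Every group held at least 1 mouse with a ratio of 1.44 or below, and each exposed group also held at least 1 of 3.38 or above. The lowest and the highest mouse, a 5.26-fold span, both belonged to the low-dose group.

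The group means of Alas1 were 2.00 ± 0.54, 2.35 ± 0.96, 2.13 ± 0.84 and 2.61 ± 0.76 (SD, n = 5), from control to the high dose. Against control the log2 fold change was 0.35, 0.12 and 0.61 at the rising doses, each with a standard error of 0.45. Single mice moved these values: with 1 array left out, the difference at the low dose ran from 0.04 (without replicate 9) to 0.64 (without replicate 6), and at the high dose from 0.40 (without replicate 20) to 0.90 (without replicate 19). The difference at the high dose was 1.52-fold (95% confidence interval 0.797 to 2.91; limma adjusted p = 0.645), and 3 of the 5 mice lay above all controls. Alas1 was the 1 member of the 7 whose difference passed 1.5-fold at any dose, at the high dose, where 2.07% of all probes did so in either direction.

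The second Alas1 probe gave the same picture of the 20 livers. Its ratios ran from 1.23 to 3.78, a span of 5.85-fold, and its log2 fold changes were 0.34, 0.09 and 0.61. Over the 20 arrays the 2 probes had a correlation of 0.99 and differed on average by 0.10. The within-group SD of the brighter probe was 0.79, higher than that of 99.3% of all probes. The spread lay in the liver channel, whose log2 signal had an SD of 0.94 over the 20 arrays, against 0.29 in the reference channel. Only 2.82% of the variance of the ratio lay between slides and 9.71% between dose groups. Over all probes measured on every array, the median shares were 40.2% and 15.4%.

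**Figure D2:**
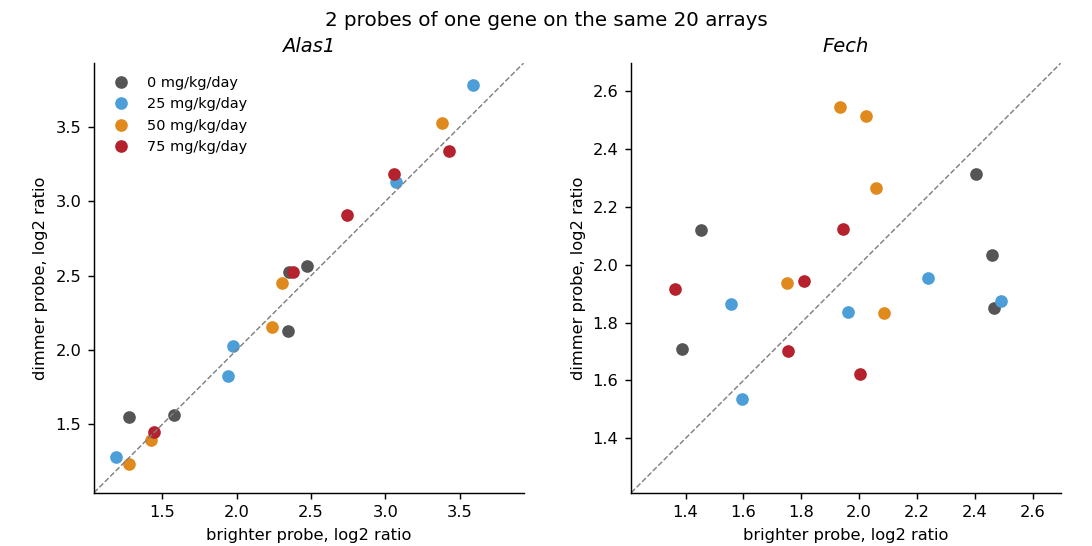
Log2 ratio of the brighter probe (x axis) against the dimmer probe (y axis) of Alas1 (left) and Fech (right), with 1 point per array coloured by BaP dose and a dashed line where both are equal. The Alas1 points follow the line (r = 0.99 over 20 arrays), and the Fech points scatter around it (r = 0.25).

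The genes most like Alas1 from array to array were Slc39a14, a zinc and iron transporter of the hepatocyte membrane, with r = 0.93, and B3galt1 with r = 0.90. These values were taken over 20 arrays after the means of slide and dose group were removed, against 12808 other genes, and describe these arrays only. The removal left fewer independent values than the 20 arrays, and these genes were picked as the highest of all compared. Without that removal, r was 0.84 and 0.59. Among 11 genes known to act on Alas1 transcription, r ran from -0.03 to 0.77, with a median of 0.27. The highest was Nr1d2, which encodes the circadian repressor REV-ERB beta, and its relative Nr1d1 had r = 0.61. Of the 12808 genes, 54 had a higher r than Nr1d2 and 332 a higher r than Nr1d1. Before the removal of slide and group means, r was 0.60 for Nr1d2 and 0.38 for Nr1d1. Ppargc1a, the coactivator that raises Alas1 on fasting, had r = 0.17. Clpx, the mitochondrial protein that unfolds and activates ALAS, had r = -0.71 (-0.46 before that removal), and 12685 of the 12808 genes had a higher r. These last genes were picked from their lists after their values were seen.

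The cytosolic enzymes Alad, Uros and Urod were read next. Alad, which joins 2 aminolevulinic acid molecules, had group means of 1.29 ± 0.34, 1.36 ± 0.33, 1.605 ± 0.07 and 1.30 ± 0.46 (SD, n = 5). The 5 mice at the middle dose lay between 1.52 and 1.68, inside a narrower band than the other groups, and 2 of them were above all controls. The log2 fold change there was 0.31 (95% confidence interval -0.09 to 0.72; limma adjusted p = 0.786). It was 0.09 in the liver channel alone and 0.20 without control replicate 5. At the high dose the ratios ran from 0.52 to 1.63, and the difference from control was 0.01.

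Uros, which closes the tetrapyrrole ring, had the smallest p of the 7 enzymes. Its control ratios were 1.79, 2.04, 1.58, 1.82 and 1.80. At the low dose they were 1.81, 1.23, 1.54, 1.53 and 1.74, and at the middle dose 1.5001, 1.23, 1.80, 1.88 and 1.64. At the high dose they were 1.26, 1.58, 1.26, 1.74 and 1.28. Of these last 5 mice, 4 lay below every control, 1 of them narrowly (1.577 against 1.580), and the remaining 1 lay within the controls.

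The Uros mean was 1.81 ± 0.16 in controls and 1.42 ± 0.22 at the high dose (SD, n = 5). The log2 fold change at the high dose was -0.38 (95% confidence interval -0.67 to -0.10), which is 0.767 of the control level, with an unadjusted p of 0.0113 and a limma adjusted p of 0.312. It was thus not called, and 11.2% of all probes had an unadjusted p under 0.05 at this dose. The corresponding shares were 7.81% at the low and 6.7% at the middle dose, where 0 of the 7 enzymes had such a p. The log2 fold changes of Uros at these doses were -0.23 and -0.20. The probe was among the dimmer ones on the array, with a mean log2 intensity of 8.05, yet well above background on all 20 arrays in both channels. On the 3 slides that held a control and a high-dose array, the exposed array was lower in each, by log2 values of -0.54 to -0.24. The slide comparisons of the other enzymes at this dose use the same arrays and are not separate from this one. The share of all probes with such agreement was not computed.

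Urod, which trims the side chains of uroporphyrinogen, varied least of the 7. Its 20 ratios lay between 1.07 and 1.65, a span of 1.5-fold, and its log2 fold changes were 0.08, -0.10 and 0.03. At the high dose the 95% confidence interval was -0.21 to 0.27, or 0.865 to 1.2 of the control level.

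**Figure D3:**
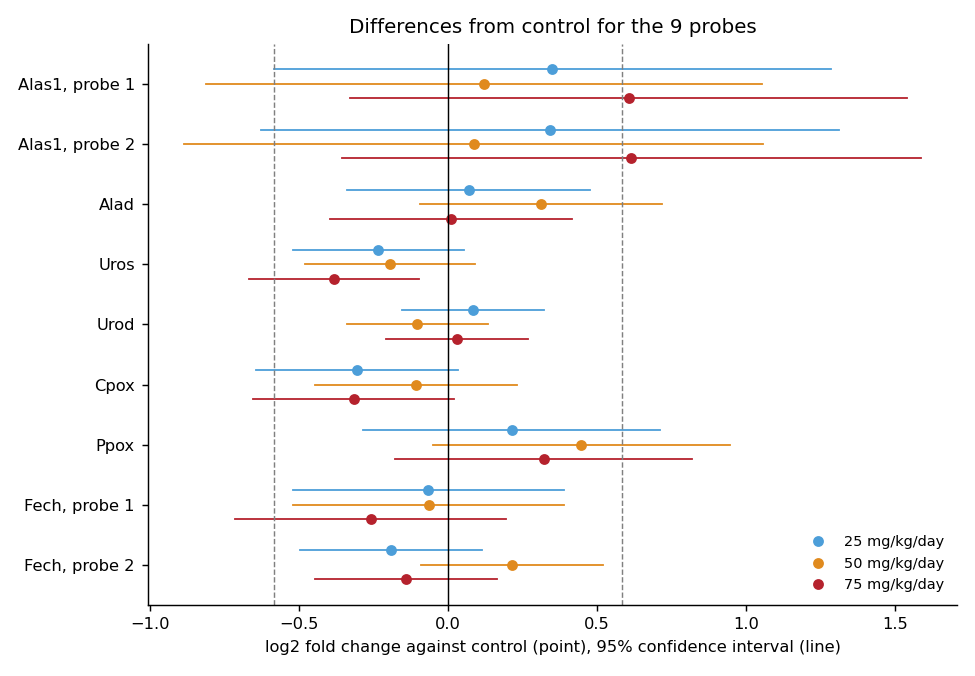
Log2 fold change against control (x axis) of the 9 probes of the heme synthesis enzymes (y axis) at 25, 50 and 75 mg/kg/day, with the point for the estimate, the line for its 95% confidence interval and dashed lines at a change of 1.5-fold. The interval of Uros at 75 mg/kg/day, -0.67 to -0.10, is the one that leaves out 0, and the Alas1 intervals are the widest.

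Of the mitochondrial enzymes, Cpox, which makes protoporphyrinogen, had ratios of 1.91, 1.89, 1.48, 2.36 and 1.95 in controls and of 1.54, 1.81, 1.42, 1.77 and 1.46 at the high dose. The groups overlapped, with 2 of the 5 exposed mice below all controls. The log2 fold change was -0.32 (95% confidence interval -0.66 to 0.02; limma adjusted p = 0.473), and -0.31 and -0.11 at the low and middle dose. On all 3 slides that allowed the comparison at the high dose the exposed array was lower than its control, by log2 values of -0.55 to -0.37.

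Ppox, which oxidises protoporphyrinogen, spread widely in controls, with ratios of 0.21, 1.57, 1.096, 0.59 and 0.22. Its ratios at the middle dose lay between 1.00 and 1.47 and at the high dose between 0.70 and 1.42, inside the range of the controls. The log2 fold changes were 0.21, 0.45 and 0.32 (limma adjusted p = 0.839, 0.768 and 0.651). On the 3 slides with both groups the array at the high dose was higher than the control by 0.48 to 0.62. The controls on these slides were the 3 lowest. Those of 1.57 and 1.096 lay on slide 6, which held no high-dose array.

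Fech inserts iron into protoporphyrin and was read by 2 probes that disagreed. Over the 20 arrays their correlation was 0.25 and their mean absolute difference 0.33. The brighter probe had log2 fold changes of -0.07, -0.07 and -0.26, and the dimmer probe -0.19, 0.21 and -0.14. At the middle dose the 2 probes thus had opposite signs, and neither was called. The brighter probe gave a mean of 2.21, 2.18 and 2.09 on slides 1 to 3 and of 1.66, 1.48 and 1.63 on slides 4 to 6, and 65.4% of its variance lay between slides. For the dimmer probe 25% did. On the 3 slides with 1 control and 1 high-dose array, the exposed array was lower in each, by -0.65 to -0.46 for the brighter probe and by -0.23 to -0.09 for the dimmer.

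Alad and Urod also differed between slides. The share of variance between slides was 62.1% for Alad and 72.9% for Urod, against 45% for Ppox, 13.4% for Cpox and 5.06% for Uros. Its median over all probes measured on every array was 40.2%. Alad had a mean of 0.94 on slide 2 and of 1.61 to 1.66 on slides 4 to 6, while Urod had 1.54 on slide 2 and 1.12 on slide 6. With slide as a block in the fit, no enzyme was called. Control and middle-dose arrays lay in equal numbers on the same slides, so the block could not move the difference at the middle dose for any enzyme. Only its error could change. Alad then had 0.31 (SE 0.12, limma adjusted p = 0.36) and Ppox 0.45 (SE 0.19, adjusted p = 0.398), both with smaller errors than without the block.

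**Figure D4:**
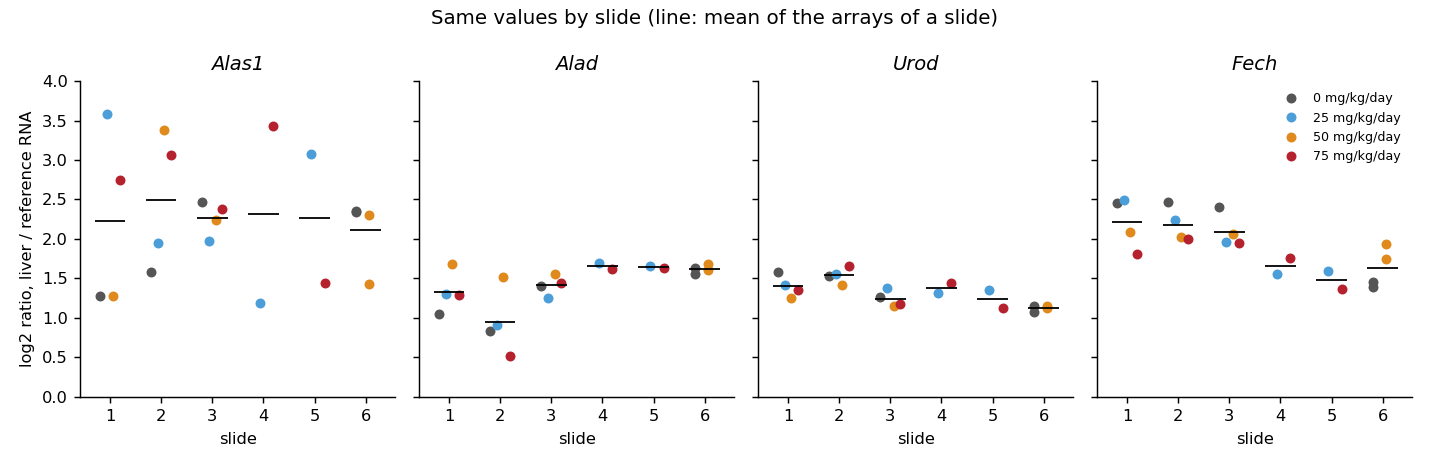
Log2 ratio of liver over reference RNA (y axis) of Alas1, Alad, Urod and Fech, brighter probe, by slide (x axis, 1 to 6), with 1 point per array coloured by BaP dose and a line for the mean of the slide. Fech lies at 2.09 to 2.21 on average on slides 1 to 3 and at 1.48 to 1.66 on slides 4 to 6, whereas the Alas1 slide means differ little beside the spread within a slide.

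Across the whole dose range the test of a linear trend called 0.157% of all probes and 0 of the 7 enzymes. Uros had the steepest fall in relation to its error, -0.11 on the log2 scale for each 25 mg/kg/day (SE 0.04, unadjusted p = 0.0166, limma adjusted p = 0.454). It was the 1 enzyme of the 7 with an unadjusted p under 0.05, a level that 8.58% of all probes reached. The slope of Alas1 was 0.16 (95% confidence interval -0.13 to 0.45). In the F test over the 4 groups 0.0805% of all probes and 0 of the enzymes passed an adjusted p of 0.05, and the smallest unadjusted p among the brighter probes was 0.0773, of Uros (limma adjusted p = 0.649). The dimmer Fech probe had a smaller unadjusted p, 0.0503, with a limma adjusted p of 0.607. No enzyme had all 5 exposed arrays beyond all 5 control arrays at any dose, a separation that 1.21%, 0.815% and 1.52% of all probes showed at the 3 doses.

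The 7 enzymes did not vary as one set between animals. Of their 21 pairs, Uros and Cpox had the highest correlation over the 20 arrays, r = 0.80 after slide and group means were removed and 0.81 before. Uros and Ppox followed with 0.75, which was 0.19 before that removal. Alad and Urod ran opposite to each other, with r = -0.74, as did Ppox and Fech, with r = -0.68. Alas1 had r between -0.50 (Cpox) and 0.31 (Alad) with the other 6. All pairs share the same arrays and reference, so these values are given as descriptions. By the same measure the genes most like the other enzymes were Stk24 (0.89) for Alad, Tceal1 (0.89) for Urod, Fam220a (0.94) for Cpox, Anks3 (0.98) for Ppox and Rad21 (0.95) for Fech. The second in rank were Rplp0 (0.88) for Alad, Lrrc59 (0.95) for Uros, Treml1 (0.85) for Urod, Slc35a1 (0.93) for Cpox, Gde1 (0.95) for Ppox and Dock1 (0.91) for Fech.

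Alas2, the erythroid counterpart of Alas1, was read in the same livers. Its ratios lay between 3.93 and 4.75 in controls and between 4.49 and 5.02 at the high dose, with 2 of 5 exposed mice above all controls. The log2 fold change was 0.31 (limma adjusted p = 0.366). The mean ratio of the 5 erythroid markers tested, which include Alas2 itself and the globin genes Hba-a1 and Hbb-bt, ran from 3.13 to 3.82 in controls and from 3.72 to 4.05 at the high dose. Epb42, Hemgn, Rhag and Gata1 did not pass the presence filter. The part of these cells in the Alas2 value was not tested, and without control replicate 4 that value was 0.18. It was 0.04 with the ratios of all arrays set to the same quantiles, and turned to -0.18 in the liver channel alone.

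Of 17 partners of heme synthesis, the carriers, chaperones and substrate enzymes around the path, 16 were tested and 0 were called at any dose. Their median log2 fold change at the high dose was -0.01, 8 lay above zero, and 1 had an unadjusted p under 0.05. Slc25a28, a mitochondrial iron importer, had 0.22 at the high dose (adjusted p = 0.392 in limma), with 4 of 5 mice above all controls. Clpx had -0.41, -0.54 and -0.41 at the rising doses (limma adjusted p = 0.673, 0.727 and 0.526), with 4 of 5 mice below all controls at the middle dose.

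On the side of heme removal, 12 of 13 genes were tested and 0 were called, with a median of 0.15 at the high dose and 1 gene with an unadjusted p under 0.05. Hmox1, the inducible heme oxygenase, had log2 fold changes of 0.07, 0.01 and -0.10. Bach1, the heme-sensing repressor of Hmox1, had 0.98 at the high dose (adjusted p = 0.372 in limma), with 1 of 5 mice above all controls, and Blvrb, a biliverdin reductase, had 0.22 (adjusted p = 0.473). The 11 regulators of Alas1 gave 0 calls, a median of 0.29 and 2 genes with an unadjusted p under 0.05. Egr1, an immediate-early transcription factor that represses Alas1, had 1.53 (adjusted p = 0.171), with 5 of 5 mice above all controls, and Hnf4a, a hepatocyte nuclear receptor, had 0.29 (adjusted p = 0.325). By RT-PCR the paper reports significant increases of Egr1 at the middle and high dose.

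The 21 heme-dependent liver enzymes gave 0 calls at each dose. Their median log2 fold change was 0.30, 0.26 and 0.38 at the 3 doses, and 19, 18 and 19 of the 21 lay above zero. An unadjusted p under 0.05 was found for 3, 6 and 7 of them, all with positive differences, where 7.81%, 6.7% and 11.2% of all probes had one in either direction. The brighter probe of Cyp2b9 had 1.08 (adjusted p = 0.0715) and that of Cyp2c38 had 0.87 (adjusted p = 0.168) at the high dose, each with 4 of 5 mice above all controls. Their dimmer probes had 1.27 (limma adjusted p = 0.269) and 0.87 (limma adjusted p = 0.233), each with 5 of 5 mice above all controls. The brighter Cyp2b9 probe was called when control replicate 1 was left out (1.33, limma adjusted p = 0.00403) or replicate 19 of the high-dose group (1.16, adjusted p = 0.0473). With the scanner's own processed signals it was 0.18 (adjusted p = 0.838 in limma). Cyp2c38, read by 2 dim probes, was called with those signals (4.10, adjusted p = 0.013). The paper used another test and left out 1 sample. It reports Cyp3a44, Cyp2b9, Cyp2c38 and Cyp2c40 as up-regulated at the high dose, Cyp3a44 with its largest fold change. Here Cyp3a44 had 0.52 (limma adjusted p = 0.456) and Cyp2c40 had 0.51 (limma adjusted p = 0.423) at the high dose. Each had 0 of 5 mice above all controls. Cyp1a1, the AhR target, had 0.72 (95% confidence interval -0.22 to 1.66, adjusted p = 0.566) and was well above background on 11 of 20 arrays. Cyp1a2, the Cyp1 enzyme of hepatocytes, was read by 2 probes, both well above background on all 20 arrays. They had 0.31 (limma adjusted p = 0.47) and 0.45 (unadjusted p = 0.000862, limma adjusted p = 0.146), the latter with 4 of 5 mice above all controls. Cyp1b1 had -0.12 (adjusted p = 0.809 in limma) and was well above background on 16 arrays. The 8 hepatocyte markers moved with this list, with a median of 0.31, 0.25 and 0.39 and an unadjusted p under 0.05 for 1, 1 and 5 of them, and their part in its values was not tested. With the ratios of all arrays set to the same quantiles, the list's median at the high dose was 0.09 and that of the regulators 0.10, whereas that of heme removal was -0.01. In the liver channel alone these medians were 0.17, 0.06 and -0.11.

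**Figure D5:**
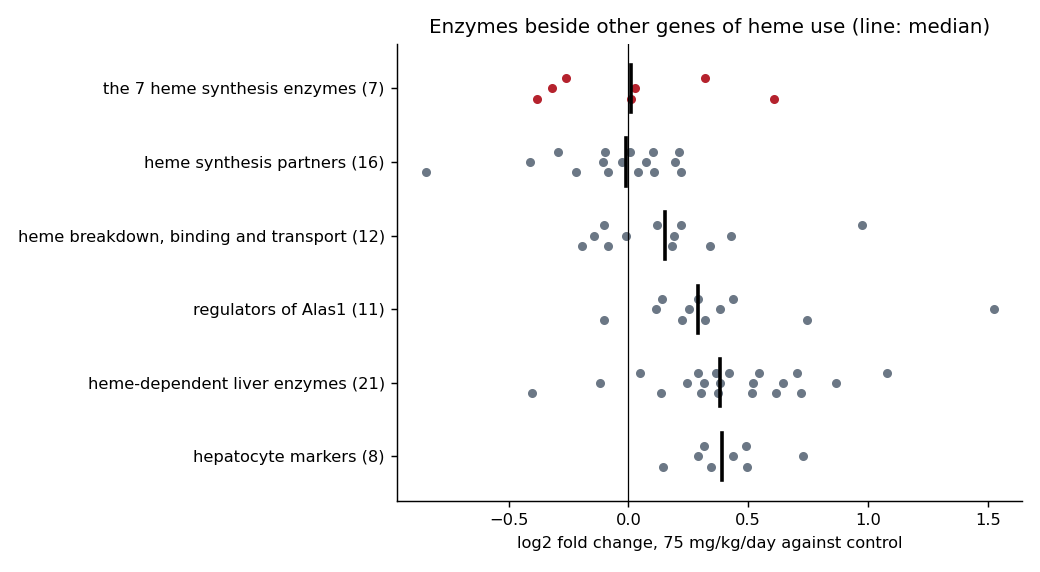
Log2 fold change at 75 mg/kg/day against control (x axis) for the 7 heme synthesis enzymes and for 5 other lists of genes (y axis, number of genes in brackets), with 1 circle per gene and a line for the median. The enzymes lie from -0.38 (Uros) to 0.61 (Alas1) around a median of 0.01, and the heme-dependent liver enzymes around 0.38.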

How the data were processed

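The authors deposited scanner output with median signal intensity per spot and channel, and LOWESS-normalized log2 ratios in a value table. Their methods named MAANOVA, which was not installed, and limma 3.58.1 (R 4.3.3) was used in its place. Background was removed with normexp (offset 50), ratios were fitted by loess on each array, outlier spots were dropped, and spots of a probe were averaged, giving 41174 probes. The ratios had r of 0.994 to 0.996 with the authors' own. Presence (27346 probes) required liver signal at least 3 trimmed SDs over the 5% trimmed mean of the negative control spots on 4 of 5 arrays in any group. Symbols came from RefSeq accessions. Benjamini-Hochberg adjustment ran over all present probes, and the fits were tested on simulated data. The brightest present probe stood for a gene. Besides the enzymes, the text names from each list the genes called at any dose or, with none, the 2 with the smallest p at 75 mg/kg/day, and by likeness 2 genes per enzyme. Hmox1, Cyp1a1, Cyp1a2, Cyp1b1, Cyp2c40, Cyp3a44, Nr1d1, Nr1d2, Ppargc1a and the markers fall outside this rule. Some genes named by the rule are not reported here. Enzymes and lists were chosen with earlier results of these data known. Alternatives were no background correction, the scanner's processed signals, the authors' ratios, no presence filter, slide as a block, quantile scaling, the liver channel alone, outlier spots kept, 1 dose with control, the mean of 2 probes and leaving out each array. Those for list medians were added after seeing the data. The number of arrays limits the precision.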

Additional observations from a re-analysis of the deposited data

Results flagged for a closer look

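In the dimmer Fech probe, replicate 7 of the 25 mg/kg/day group read 1.54, while the nearest of the other 4 mice read 1.84. The gap was 0.717 of the range of the group, above Dixon's 95% critical value for 5 samples. Among 36 groups of 5 arrays examined, chance alone marks about 1 in 20. The brighter Fech probe read 1.59 in the same mouse, inside its group.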

How the results depend on the processing

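None of the 7 enzymes was called under any alternative, and their smallest adjusted p was 0.211 with a changed setting and 0.181 with 1 array left out (limma). Of 253 values of single enzymes under changed settings, 238 kept their sign and 15 turned. With slide as a block, Alad became -0.0329 at 25 and -0.0918 at 75 mg/kg/day and Urod -0.0218 at 75. At the same quantiles, Alad became -0.0066 at 25 and -0.0691 at 75, and Urod -0.0113 at 25 and -0.0793 at 75. With the authors' ratios, Alad became -0.0497 and Urod -0.0079 at 75. In the liver channel alone, Alad at 75 became -0.059 and its trend -0.0175, Urod at 75 -0.0247, and Fech 0.0834 at 25 and 0.0361 at 50. The mean of both Fech probes at 50 was 0.0746. Among listed genes at 75, Alas2 became -0.1767 in the liver channel alone, and Hnf4a -0.0151 at the same quantiles. Cyp2c38 was called with the scanner's processed signals (4.10, adjusted p = 0.013), and Cyp2b9 without control replicate 1 (1.33, adjusted p = 0.00403) or without replicate 19 of the 75 mg/kg/day group (1.16, adjusted p = 0.0473). Leaving out 1 array at a time turned 26 of 560 values of the enzymes. Alad then ran from -0.0468 to 0.1823 at 25 and from -0.1057 to 0.2044 at 75, with a trend of -0.0088 to 0.0907. Alas1 at 50 ran from -0.1933 to 0.332, Cpox at 50 from -0.2174 to 0.0017, and Fech from -0.2283 to 0.0412 at 25 and from -0.2266 to 0.0428 at 50. Urod at 75 ran from -0.047 to 0.0941 with a trend of -0.034 to 0.0071. The causes were not tested. The groups share no replicate numbers, so the slide was the only block fitted. Cyp2b9 at 75 was 0.1807 with the scanner's processed signals.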
